A study of Mus musculus with 12 samples.

Results

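The Nanog neighbourhood described here is a stretch of 310 kb on mouse chromosome 6, from 122550000 to 122860000 of the GRCm38 build, that holds Nanog, Dppa3, Gdf3, Slc2a3 and Apobec1. Its members are all open-chromatin peaks that lie wholly inside these limits. They numbered 54 of the 91354 peaks called for the BGI samples and 48 of the 87027 peaks called for the Illumina samples. Gdf3 (chr6:122605403-122610087) and Slc2a3 (chr6:122727809-122801640) lie on the minus strand with Apobec1 (chr6:122577792-122602444), and Dppa3 (chr6:122626410-122630272) and Nanog (chr6:122707489-122714633) on the plus strand. The annotation (GENCODE release M21) also places Foxj2 and C3ar1 in the stretch. Accessibility had been measured by Omni-ATAC-seq, in which the Tn5 transposase cuts and tags open DNA, in sorted THY1+ mouse embryonic fibroblasts (MEFs) and in embryonic stem cells of the mouse (mESCs) that had been sorted for THY1-/SSEA1+/EPCAM+. Both cell types had a C57/Bl6 background, and neither had been treated. The 6 libraries were MEF 1, 2 and 4 and mESC 1, 3 and 5, and each library was read by both sequencers, the DNBSEQ-G400 of BGI and the HiSeqX10 of Illumina, which gave 12 samples in 4 groups of 3. The same library underlies the BGI and the Illumina sample of a number, so the second platform is a second reading of the same DNA and not a further biological replicate.

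Nanog is a homeodomain transcription factor of the pluripotent state, and it acts with POU5F1 and SOX2 on a shared set of enhancers and promoters. Its neighbours Dppa3, a maternal factor that protects DNA methylation in the early embryo, and Gdf3, a ligand of the TGF-beta family, are also active in pluripotent cells. Slc2a3 encodes the glucose transporter GLUT3. The other genes serve other tissues: Apobec1 encodes a cytidine deaminase that edits RNA, C3ar1 a complement receptor of myeloid cells, and Foxj2 a forkhead transcription factor.

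Positions are given in kb from the first annotated Nanog start at 122707489, negative towards Dppa3 and positive towards Slc2a3. The sequences of 6 peaks are shown first because they hold the motif matches described with the results. The stretch before the Nanog start comes from the RefSeq promoter table and the others from the RefSeq genome sequence of the same build. All are on the plus strand, 5′ to 3′. None overlaps an annotated exon. Before Nanog (chr6:122707239-122707488), the capitals mark a match to a composite POU and SOX motif and, near the 3′ end, a match to a KLF motif. In the -82.8 kb peak upstream of Dppa3 (chr6:122624578-122624748) they mark matches to the POU motif. In the -4.8 kb peak (chr6:122702589-122702854) they mark matches to the TEAD motif, the last of which lies in repeat-masked sequence. In the +59.1 kb peak (chr6:122766584-122766712) and the +63.1 kb peak (chr6:122770486-122770614) they mark a match to the ESRRB and NR5A motif. In the -17.6 kb peak (chr6:122689818-122689975), which was more open in MEFs, they mark matches to the AP-1 motif.
Nanog start: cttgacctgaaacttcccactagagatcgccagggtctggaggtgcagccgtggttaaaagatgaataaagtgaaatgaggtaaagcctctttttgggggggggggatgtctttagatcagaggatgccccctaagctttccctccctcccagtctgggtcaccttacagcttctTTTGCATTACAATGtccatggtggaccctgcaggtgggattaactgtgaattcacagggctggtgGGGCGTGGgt
-82.8 kb: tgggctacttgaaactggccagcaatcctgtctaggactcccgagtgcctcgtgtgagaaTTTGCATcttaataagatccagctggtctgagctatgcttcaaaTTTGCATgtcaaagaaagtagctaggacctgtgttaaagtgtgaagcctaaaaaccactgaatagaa
-4.8 kb: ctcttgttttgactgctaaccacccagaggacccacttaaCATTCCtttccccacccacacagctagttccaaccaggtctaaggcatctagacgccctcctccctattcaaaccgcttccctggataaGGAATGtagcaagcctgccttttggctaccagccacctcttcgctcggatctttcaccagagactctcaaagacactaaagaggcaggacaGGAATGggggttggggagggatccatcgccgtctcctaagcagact
+59.1 kb: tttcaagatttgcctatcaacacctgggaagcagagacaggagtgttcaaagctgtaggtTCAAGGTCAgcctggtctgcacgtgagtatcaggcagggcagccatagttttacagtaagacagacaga
+63.1 kb: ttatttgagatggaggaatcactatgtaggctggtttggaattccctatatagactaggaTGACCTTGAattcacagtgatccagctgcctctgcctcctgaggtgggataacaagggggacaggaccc
-17.6 kb: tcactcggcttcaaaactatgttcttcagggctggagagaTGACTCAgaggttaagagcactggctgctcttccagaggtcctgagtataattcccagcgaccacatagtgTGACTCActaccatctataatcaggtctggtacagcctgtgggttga

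Values are CPM, the read count of a peak scaled to 1 common total of reads in peaks for every sample. Samples held between 15860985 and 21662775 reads in peaks. The cell types were checked at promoter peaks, within 1 kb of an annotated transcription start. All 7 mESC markers examined (Pou5f1, Sox2, Esrrb, Zfp42, Epcam, Cdh1 and Fut9) had a more open promoter in mESCs on both platforms. Of 20 fibroblast genes, 18 were less open in mESCs on BGI and the other 2, Pdgfra and Snai2, were not called. On Illumina 16 of the 19 with a promoter peak were less open. Among markers of other cell types, 3 of 4 primitive endoderm promoters were more open in mESCs and 1 less open on both platforms, and 1 of the 2 trophoblast promoters with a peak was more open. The 3 endothelial promoters with a peak were not called. In bulk samples, fewer cells with an open site and a smaller opening per cell cannot be told apart.

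The question of the main comparison was which parts of the neighbourhood differ in accessibility between mESCs and MEFs. Most of the neighbourhood was more open in mESCs. On BGI 40 of the 54 peaks were higher in mESCs, against 40.9% of all peaks tested, 6 were lower, against 43.2% of all, and 8 were not called (edgeR quasi-likelihood test, Benjamini-Hochberg adjusted p under 0.05). On Illumina 33 of 48 were higher, against 42.1% of all, 5 were lower, against 42.4%, and 10 were not called. The median log2 fold change (mESC minus MEF) of the members was 1.89 on BGI and 1.91 on Illumina, beside -0.08 and -0.03 over all peaks tested. All members passed the filter on low counts, which a peak open in a single cell type can pass. Peaks entered a set when they were reproducible in either cell type. Of the 54 BGI members, 51 were on the BGI list of reproducible mESC peaks and 20 on that of MEF peaks. For members on the mESC list only, a higher value in mESCs was thus partly fixed by the selection. In 20 of the 40 BGI peaks that were higher, the log2 fold change was at least 3, and 16 of the 40 had a mean below 1 CPM in MEFs.

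The stretch was also densely covered with peaks. Its 54 BGI peaks compare with 10.8 peaks for an average stretch of the same length over the assembled chromosomes without the Y. The stretch of equal length on the Apobec1 side held 28 BGI peaks, with 21 higher in mESCs and 3 lower. On the C3ar1 side it held 7, with 5 higher and 1 lower. Summits called in single samples showed the same contrast: between 172 and 207 fell in the neighbourhood in each mESC sample and between 53 and 60 in each MEF sample. The mESC samples had been reduced to fewer reads than the MEF samples. Summit numbers over the whole genome were not compared. The peak sets were built from such summits, so these counts are not separate support for the contrast. When the -log10 p had to reach 10, mESC samples kept 104 to 121 summits and MEF samples 32 to 39.

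Summed over the 54 BGI peaks, the neighbourhood received 369, 412 and 388 CPM in MEF 1, 2 and 4 and 850, 825 and 832 CPM in mESC 1, 3 and 5. On Illumina the sums over 48 peaks were 375, 402 and 392 CPM in MEFs and 804, 777 and 757 CPM in mESCs. The groups did not overlap on either platform. By position, 19 of the BGI peaks lay within 1 kb of a transcription start of any gene class, 8 were exonic, 12 intronic and 15 intergenic. Among the 35 peaks away from starts, 29 were higher in mESCs and 2 lower, and among the 19 at starts 11 were higher and 4 lower. The shares called over all peaks of each class were not computed. Whether this split is particular to the neighbourhood was therefore not tested.

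**Figure D1:**
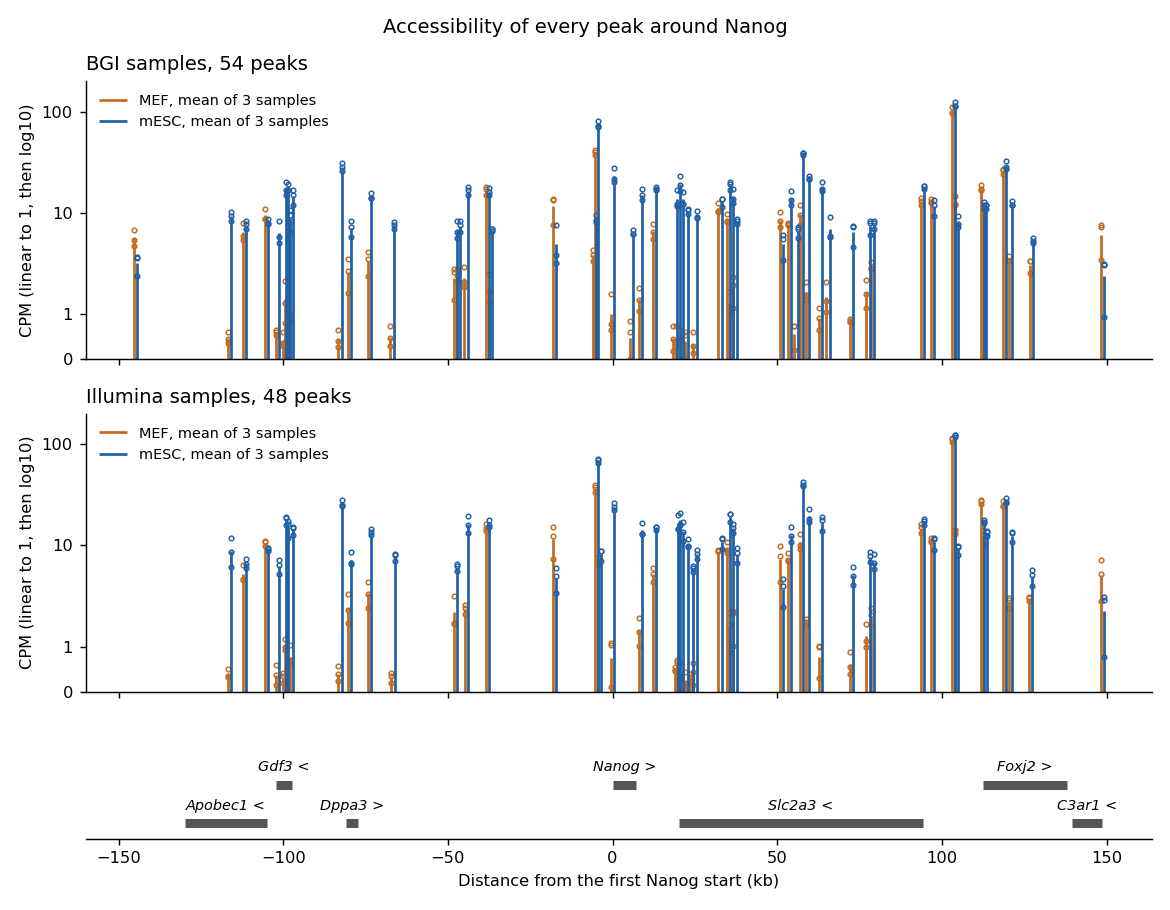
Read counts scaled to a common total (CPM, linear to 1, then log10) of all 54 BGI peaks and all 48 Illumina peaks against the distance from the first Nanog start in kb. Lines are the means of 3 samples, open circles single samples, and grey bars below are coding genes with a promoter peak and their direction. The mESC lines stand above the MEF lines at most peaks from Gdf3 to the upstream part of Slc2a3, though not at -17.6 or 51.4 kb or, on BGI, at -37.9 kb, and both are near each other at 103.6 kb.

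Nanog itself was closed in MEFs and open in mESCs. The peak over its start (chr6:122707205-122707706) had 0.785, 1.59 and 0.647 CPM in MEF 1, 2 and 4 and 21.8, 27.8 and 20.3 CPM in mESC 1, 3 and 5 on BGI. The Illumina values were 0.0933, 1.09 and 1.03 CPM in MEFs and 23.8, 26.2 and 22.1 CPM in mESCs. The lowest mESC sample was far above the highest MEF sample on both platforms. The log2 fold change was 4.46 ± 0.25 (SE, n = 3 per group, edgeR adjusted p = 3.13e-11) on BGI and 4.99 ± 0.31 (adjusted p = 9.28e-11) on Illumina. The MEF 1 value on Illumina rests on 2 reads. Within 500 bp of the first start, a summit was called in all 6 mESC samples, with a fold enrichment of 23.9 to 35.1 over background, and in none of the 6 MEF samples.

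The -4.8 kb peak (chr6:122702447-122702948), intergenic and upstream of Nanog, was the most open mESC peak between Dppa3 and Slc2a3, but it was open in MEFs too. It had 37.0, 39.9 and 41.6 CPM in MEFs and 72.6, 81.4 and 70.8 CPM in mESCs on BGI. The Illumina values were 33.9, 37.4 and 39.2 CPM in MEFs and 69.8, 72.0 and 65.6 CPM in mESCs. The groups did not overlap, and the log2 fold change was 0.86 ± 0.09 (adjusted p = 7.90e-08) on BGI and 0.87 ± 0.08 (adjusted p = 2.16e-08) on Illumina. It was on all 4 lists of reproducible peaks, whereas the peak over the Nanog start was on the mESC lists only. Its neighbour at -5.4 kb, which only the BGI set contained, had a mean of 3.85 ± 0.48 CPM (SD, n = 3) in MEFs and 8.70 ± 0.71 CPM in mESCs.

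Downstream of Nanog the peaks at 8.4 and 12.7 kb were both higher in mESCs. The first had 1.06, 1.39 and 1.79 CPM in MEFs and 14.9, 17.1 and 13.4 CPM in mESCs on BGI. The second was already open in MEFs, at 5.49, 6.51 and 7.77 CPM, and had 17.2, 17.8 and 16.8 CPM in mESCs. A group of peaks from 19.0 to 25.0 kb, which runs into the 3′ part of Slc2a3, was nearly closed in MEFs. Its 5 BGI peaks had MEF means of 0.344 to 0.520 CPM and mESC means of 9.39 to 19.3 CPM, with log2 fold changes of 4.63 to 5.23. On Illumina 6 peaks lay there, with log2 fold changes of 4.11 to 5.43.

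Gdf3 carried a second such group. All 5 BGI peaks over the gene and its start were higher in mESCs, with log2 fold changes of 3.33 to 5.27. The peak over the Gdf3 start (chr6:122609748-122610249) had 0.877, 0.994 and 0.996 CPM in MEFs and 14.9, 11.9 and 16.7 CPM in mESCs on BGI, and 0.6996, 1.04 and 0.591 CPM against 15.1, 12.6 and 15.0 CPM on Illumina. The promoter peak with the highest count (chr6:122608358-122608859) lay inside the gene, with 1.29, 0.795 and 2.14 CPM in MEFs and 19.4, 16.9 and 16.9 CPM in mESCs on BGI. On Illumina that peak had 0.933, 1.19 and 0.985 CPM in MEFs and 17.3, 16.4 and 11.7 CPM in mESCs. The 5 peaks together held 3.65, 3.18 and 4.43 CPM in MEFs and 67.2, 56.8 and 70.2 CPM in mESCs.

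Upstream of Dppa3 stood the peak with the largest difference of the whole neighbourhood, at -82.8 kb (chr6:122624407-122624908). It had 0.277, 0.398 and 0.647 CPM in MEFs and 25.9, 28.3 and 31.0 CPM in mESCs on BGI, and 0.560, 0.248 and 0.394 CPM against 24.6, 27.8 and 25.2 CPM on Illumina. Its log2 fold change was 5.94 ± 0.22 (adjusted p = 3.25e-13) on BGI and 5.93 ± 0.22 (adjusted p = 2.74e-13) on Illumina. By the 1 kb rule it counted as a promoter peak of Gm26168, a small non-coding RNA gene, and not of Dppa3. No peak of either set covered a Dppa3 start. The nearest, within 1 kb and inside the gene (chr6:122627405-122627906), had 1.62, 3.48 and 2.69 CPM in MEFs and 8.39, 5.79 and 7.21 CPM in mESCs on BGI, with a log2 fold change of 1.39 ± 0.27 (adjusted p = 1.25e-04). The Illumina values were 2.29, 3.28 and 1.72 CPM in MEFs and 8.57, 6.49 and 6.70 CPM in mESCs, with 1.53 ± 0.25 (adjusted p = 2.20e-05). Summits within 500 bp of the first Dppa3 start were called in all 6 mESC samples, with a fold enrichment of 4.199 to 9.31, and in none of the 6 MEF samples.

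Between Dppa3 and Nanog most sites were also higher in mESCs. Of 10 BGI peaks from the end of Dppa3 to 1 kb upstream of Nanog, 8 were higher in mESCs, 1 was lower and 1 was not called, with a median log2 fold change of 1.53. The peak at -44.5 kb rose from 1.85, 2.09 and 2.89 CPM in MEFs to 16.7, 17.9 and 14.9 CPM in mESCs on BGI. The peak at -37.9 kb (chr6:122669319-122669820) was open in both cell types. It had 17.1, 17.8 and 15.1 CPM in MEFs and 15.9, 17.6 and 15.1 CPM in mESCs on BGI, and 14.9, 13.9 and 16.2 CPM against 15.9, 17.6 and 15.3 CPM on Illumina, with overlapping groups. Its log2 fold change was -0.11 ± 0.13 (adjusted p = 0.446) on BGI and 0.07 ± 0.12 (adjusted p = 0.602) on Illumina.

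**Figure D2:**
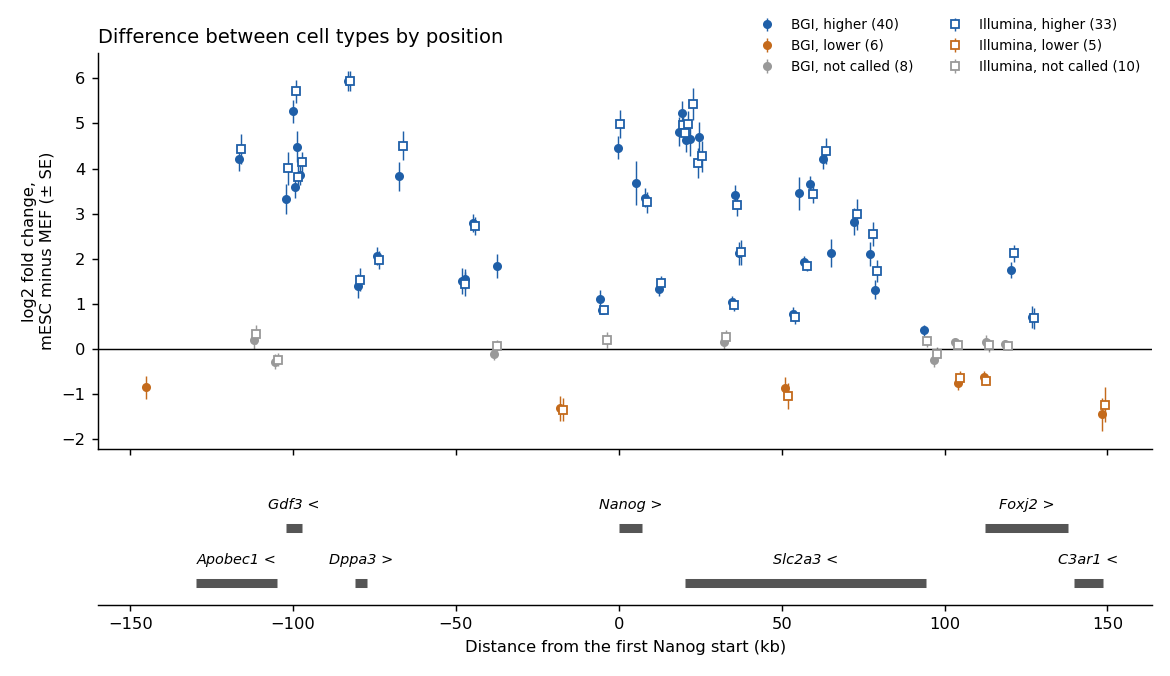
Log2 fold change, mESC minus MEF, with its standard error for each peak against the distance from the first Nanog start in kb, filled for BGI and open for Illumina. Blue marks the 40 and 33 peaks higher in mESCs, orange the 6 and 5 lower, and grey the 8 and 10 not called. The largest values lie at -82.8 kb, over Gdf3, at 19.0 to 25.0 kb and, on Illumina, at the Nanog start. From 94 kb on the peaks called higher in mESCs are those at 94.1 kb (BGI), 120.8 kb and 127.1 kb.

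Slc2a3 is transcribed towards Nanog from a group of starts near 35 kb, from an internal start and from 2 starts farther upstream. The peak over the common starts (chr6:122742325-122742826) was open in MEFs and more open in mESCs. It had 8.26, 9.74 and 8.17 CPM in MEFs and 17.0, 20.1 and 19.3 CPM in mESCs on BGI, and 8.49, 9.04 and 10.7 CPM against 16.9, 20.4 and 20.2 CPM on Illumina. Its log2 fold change was 1.04 ± 0.14 (adjusted p = 2.40e-06) on BGI and 0.98 ± 0.14 (adjusted p = 3.13e-06) on Illumina. The adjacent peak at 36.0 kb differed more, with 1.06, 1.19 and 1.64 CPM in MEFs and 17.2, 12.5 and 13.9 CPM in mESCs on BGI.

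The promoter peak of Slc2a3 with the highest count was the one at its farthest start, at 94.1 kb (chr6:122801304-122801805). It had 11.96, 13.9 and 12.9 CPM in MEFs and 18.5, 18.5 and 17.1 CPM in mESCs on BGI, with a log2 fold change of 0.41 ± 0.13 (adjusted p = 0.00636). On Illumina it had 13.1, 16.3 and 15.1 CPM in MEFs and 17.3, 15.9 and 18.4 CPM in mESCs, the groups overlapped, and the difference of 0.17 ± 0.12 was not called (adjusted p = 0.206). It was called on Illumina, at 0.30, when library sizes were set to the down-sampled depths (adjusted p = 0.0346). Inside the gene the peak at 32.6 kb (chr6:122739871-122740372), exonic, did not pass the test on either platform. It had 10.3, 12.6 and 10.3 CPM in MEFs and 13.6, 13.8 and 11.3 CPM in mESCs on BGI, and 8.77, 8.79 and 8.91 CPM against 11.8, 11.6 and 9.24 CPM on Illumina, with adjusted p = 0.348 and 0.135. With the down-sampled depths the Illumina difference was 0.38 and was called (adjusted p = 0.0327).

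A further group of strong mESC peaks lay in introns of the long Slc2a3 transcripts, upstream of the common starts. The most open, at 57.3 kb (chr6:122764577-122765078), had 7.57, 12.03 and 9.46 CPM in MEFs and 37.5, 39.0 and 39.3 CPM in mESCs on BGI, and 10.1, 13.0 and 9.21 CPM against 38.4, 39.1 and 42.6 CPM on Illumina. Its log2 fold change was 1.93 ± 0.14 (adjusted p = 6.05e-10) and 1.85 ± 0.12 (adjusted p = 1.59e-10). The peak at 59.1 kb (chr6:122766389-122766890) was closed in MEFs, with 1.39, 1.54 and 2.09 CPM, and open in mESCs, with 23.0, 21.5 and 21.5 CPM on BGI. On Illumina it had 1.87, 1.74 and 1.62 CPM in MEFs and 23.0, 18.3 and 17.1 CPM in mESCs. The log2 fold change was 3.65 ± 0.18 (adjusted p = 7.08e-12) and 3.43 ± 0.19 (adjusted p = 2.03e-11). The next, at 63.1 kb, had a log2 fold change of 4.22 ± 0.22 and 4.39 ± 0.28. Over the 12 BGI peaks from upstream of the common starts to the farthest start, 11 were higher in mESCs and 1 was lower.

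That 1 peak, at 51.4 kb (chr6:122758657-122759158), was among the few sites of the neighbourhood that were more open in MEFs. It had 8.26, 10.3 and 7.17 CPM in MEFs and 5.48, 3.43 and 6.03 CPM in mESCs on BGI, where the log2 fold change was -0.86 ± 0.22 (adjusted p = 0.00192). On Illumina it had 7.93, 9.79 and 4.38 CPM in MEFs and 4.63, 2.48 and 3.97 CPM in mESCs, with overlapping groups and -1.05 ± 0.28 (adjusted p = 0.00248). The peak at -17.6 kb (chr6:122689637-122690138), intergenic between Dppa3 and Nanog, was lower in mESCs as well. It had 13.4, 13.8 and 7.57 CPM in MEFs and 7.63, 3.19 and 3.85 CPM in mESCs on BGI, and 15.2, 12.4 and 7.38 CPM against 5.94, 3.36 and 4.96 CPM on Illumina. MEF 4 was the lowest MEF sample and overlapped the mESC range on BGI. The log2 fold change was -1.32 ± 0.28 (adjusted p = 3.44e-04) and -1.35 ± 0.25 (adjusted p = 8.27e-05).

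The largest decrease in mESCs on BGI was at the start of C3ar1 (chr6:122855926-122856427). It had 7.25, 7.65 and 3.39 CPM in MEFs and 3.03, 0.946 and 3.11 CPM in mESCs on BGI, with a log2 fold change of -1.45 ± 0.37 (adjusted p = 0.00158). On Illumina it had 7.14, 5.22 and 2.86 CPM in MEFs and 3.06, 0.767 and 2.92 CPM in mESCs, with overlapping groups and -1.23 ± 0.40 (adjusted p = 0.00803). Again MEF 4 was the lowest of the MEFs. Without MEF 1 the Illumina difference was -0.89 and no longer called (adjusted p = 0.0730). Of 5 macrophage markers, Ptprc, Spi1 and Adgre1 had no promoter peak. Csf1r was more open in MEFs, with 14.4, 17.0 and 16.2 CPM in MEF 1, 2 and 4 and 2.77, 1.005 and 2.61 CPM in mESCs on BGI. Cd68 was more open in mESCs, with 14.2, 10.9 and 8.11 CPM in MEFs and 57.2, 49.7 and 54.5 CPM in mESCs. The sum of both ranged from 24.4 to 28.5 CPM in MEFs and from 50.7 to 60.02 CPM in mESCs, where Cd68 made up most of it. The MEFs had been sorted as THY1+, and the part of other cells in the C3ar1 difference was not tested.

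The start of Apobec1 was open in both cell types. The Apobec1 start (chr6:122602158-122602659) had 8.72, 8.65 and 10.9 CPM in MEFs and 7.88, 7.69 and 8.63 CPM in mESCs on BGI, and 10.7, 9.89 and 11.0 CPM against 9.502, 8.84 and 9.30 CPM on Illumina. The groups just failed to overlap, but the difference was not called, with -0.29 ± 0.17 (adjusted p = 0.115) and -0.24 ± 0.15 (adjusted p = 0.136). Inside the gene, the exonic peak at -116.3 kb was higher in mESCs, with 0.600, 0.447 and 0.348 CPM in MEFs and 9.27, 8.40 and 10.2 CPM in mESCs on BGI and a log2 fold change of 4.22 ± 0.29 (adjusted p = 3.38e-10), beside 4.44 ± 0.33 on Illumina. In an Apobec1 intron the peak at -111.7 kb (chr6:122595588-122596089) had 5.91, 5.37 and 7.97 CPM in MEFs and 7.69, 6.92 and 8.39 CPM in mESCs on BGI. The Illumina values were 4.52, 4.62 and 6.40 CPM in MEFs and 7.38, 6.60 and 6.02 CPM in mESCs, and it was not called on either platform (adjusted p = 0.366 and 0.155). Without MEF 4 the Illumina difference was 0.45 (adjusted p = 0.04998).

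Foxj2 held peaks of all 3 kinds. The peak at the Foxj2 start (chr6:122819649-122820150) was lower in mESCs. It had 16.7, 17.0 and 19.0 CPM in MEFs and 11.0, 11.8 and 12.9 CPM in mESCs on BGI, and 25.8, 27.1 and 28.0 CPM against 16.9, 16.5 and 17.9 CPM on Illumina. The log2 fold change was -0.62 ± 0.13 (adjusted p = 2.50e-04) and -0.70 ± 0.10 (adjusted p = 3.46e-06). The adjacent peak at 113.0 kb (chr6:122820221-122820722) had 9.28, 9.44 and 11.3 CPM in MEFs and 10.9, 11.9 and 12.1 CPM in mESCs on BGI, and 10.2, 13.9 and 12.6 CPM against 13.7, 12.4 and 13.9 CPM on Illumina. It was not called (adjusted p = 0.350 and 0.604). The Foxj2 promoter peak with the highest count, at an internal start at 119.0 kb (chr6:122826278-122826779), had 24.0, 27.2 and 26.5 CPM in MEFs and 32.3, 27.0 and 28.2 CPM in mESCs on BGI. On Illumina it had 24.5, 24.4 and 27.4 CPM in MEFs and 29.3, 26.3 and 26.7 CPM in mESCs, and it was not called either (adjusted p = 0.358 and 0.551). Farther inside Foxj2, the exonic peak at 120.8 kb was higher in mESCs, by 1.75 ± 0.18 on BGI and 2.12 ± 0.19 on Illumina on the log2 scale, and so was the intronic peak at 127.1 kb, by 0.71 ± 0.24 on BGI and 0.68 ± 0.24 on Illumina, with adjusted p = 0.0106 and 0.0136.

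The most open site of all, at 103.6 kb (chr6:122810790-122811291), at the start of the unclassified transcript Gm5112, was open in every sample. It had 96.4, 110 and 96.1 CPM in MEFs and 114, 124 and 113 CPM in mESCs on BGI, and 105, 114 and 113 CPM against 122, 124 and 116 CPM on Illumina. The highest summit of the neighbourhood fell there in all 12 samples, with a fold enrichment of 109 to 159. The difference was small, at 0.15 ± 0.08 (adjusted p = 0.110) on BGI and 0.08 ± 0.07 (adjusted p = 0.298) on Illumina. On BGI it was called without MEF 2, at 0.22 (adjusted p = 0.0451), by DESeq2, at 0.19 (adjusted p = 0.0268), with the size factors of DESeq2 in edgeR, at 0.19 (adjusted p = 0.0405), and with the down-sampled depths, at 0.29 (adjusted p = 0.0121). On Illumina it was called with those depths only, at 0.20 (adjusted p = 0.0303). Beside it the peak at 104.4 kb (chr6:122811662-122812163) was lower in mESCs, with 11.9, 12.2 and 14.8 CPM in MEFs and 9.33, 7.21 and 7.70 CPM in mESCs on BGI, and 14.3, 13.0 and 14.2 CPM against 9.69, 8.08 and 9.86 CPM on Illumina. Its log2 fold change was -0.75 ± 0.16 (adjusted p = 3.38e-04) and -0.64 ± 0.14 (adjusted p = 4.90e-04). The peak at 97.2 kb (chr6:122804411-122804912) had 12.9, 13.6 and 12.5 CPM in MEFs and 12.04, 9.34 and 13.3 CPM in mESCs on BGI, and 11.2, 11.9 and 10.8 CPM against 11.6, 9.08 and 11.8 CPM on Illumina, with overlapping groups (adjusted p = 0.148 and 0.497).

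**Figure D3:**
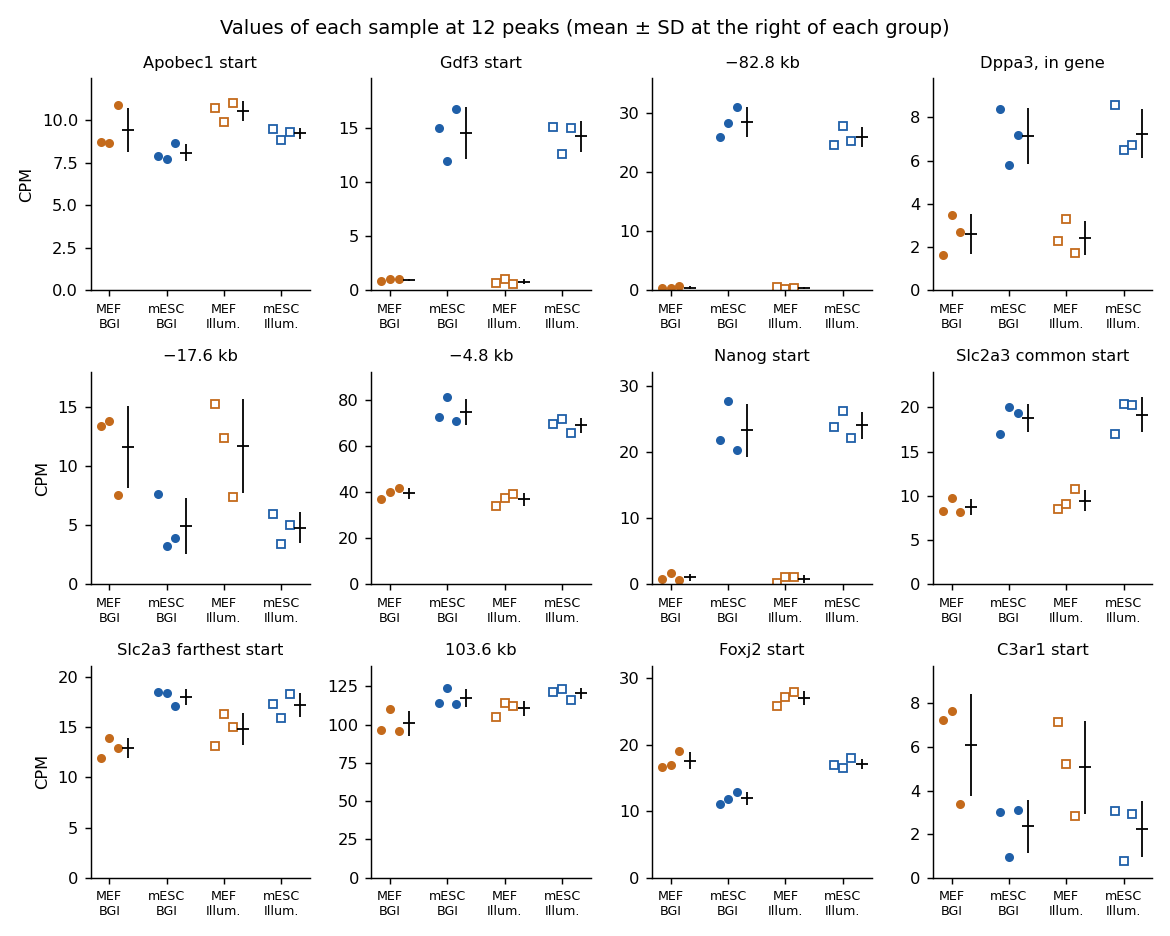
CPM of each sample at 12 peaks, on axes from 0, with MEFs in orange and mESCs in blue, BGI filled and Illumina open, and the mean ± SD of 3 samples at the right of each group. The Nanog and Gdf3 starts and the -82.8 kb peak are near 0 in MEFs, the -4.8 kb peak is open in both cell types, and MEF 4, the third MEF point, is the lowest at -17.6 kb and at the C3ar1 start on both platforms.

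The peaks were searched on both strands for short motifs of factors known from these cell types. The composite motif, in which the SOX letters CATTGT stand 1 base before the POU letters ATGCAAA, occurred in 1 of the 54 BGI members, the peak over the Nanog start, at positions -75 to -62 from the first start. In all 91285 BGI peaks of the same length, 502 bp, it occurred in 0.00986%. The POU letters alone, which the composite match contains, occurred in 10 of 54 members and 9.05% of all peaks, and the SOX letters alone in 10 of 54 and 20.4%. By call, the POU letters were in 6 of 40 higher, 2 of 6 lower and 2 of 8 uncalled BGI members, and in 3 of 33 higher, 2 of 5 lower and 2 of 10 uncalled Illumina members. Over all peaks they were in 11.2% of those higher and 8.14% of those lower on BGI, and in 11% and 7.96% on Illumina. The ESRRB and NR5A letters TCAAGGTCA occurred in 3 of 54 members and 1.42% of all peaks. These 3, at 25.0, 59.1 and 63.1 kb, were all higher in mESCs, as were 40 of all 54 BGI members. Over all BGI peaks these letters occurred in 2.47% of those higher in mESCs and 0.631% of those lower. The matches at 59.1 and 63.1 kb lie in repeat-masked sequence.

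The AP-1 letters TGANTCA occurred in 5 of the 6 BGI members that were lower in mESCs, in 5 of the 40 that were higher and in 1 of the 8 not called. Over all BGI peaks they occurred in 35.6% of those lower in mESCs, in 18.6% of those higher and in 25.2% of all. On Illumina they occurred in 4 of 5 lower members and 3 of 33 higher ones. The first of the pair of AP-1 matches at -17.6 kb lies in repeat-masked sequence. Of the remaining motifs, KLF (GGGNGTGG) was in 15 of 54 members and 25.1% of all, TEAD (GGAATG) in 15 of 54 and 31.7%, and the core of the CTCF motif (CCANNAGGG) in 8 of 54 and 12.9%. A match is a stretch of letters and was not measured as bound.

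At the promoters of 30 other genes of the pluripotency network the direction was mostly that of Nanog. The list was chosen with earlier results of these data known. On BGI 24 of 30 were more open in mESCs, 5 less open and 1 not called, with a median log2 fold change of 1.91. Of all BGI peaks of any class, 40.9% were higher in mESCs and 43.2% lower. On Illumina 23 were more open, 5 less open and 2 not called, with a median of 1.93, beside 42.1% higher and 42.4% lower of all peaks. Esrrb, an orphan nuclear receptor of the naive state, had a log2 fold change of 6.12 ± 0.24 on BGI, and Zfp42, the marker also called Rex1, 5.38 ± 0.16. Pou5f1 and Sox2, the partners of Nanog, had smaller values of 2.14 ± 0.15 and 2.21 ± 0.15. The 5 that were less open on BGI were Klf4, Tbx3, Lefty1, Tet1 and Fbxo15, with log2 fold changes of -0.27 to -0.96, and Klf2 was not called.

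The 5 coding genes whose promoter peak was nearest to that of Nanog, by Euclidean distance of log2 CPM over the 6 BGI samples among 15126 genes, were Cyct, Prss48, Sh2d4b, Spp1 and Vwa3a, at distances of 0.585 to 0.826. Cyct encodes the testis form of cytochrome c, and Spp1 the secreted protein osteopontin. Their log2 fold changes were 4.16 to 4.67, beside 4.46 for Nanog. This closeness follows from the choice, which used the same 6 samples. Measured over the 6 Illumina samples, Spp1 was the nearest and Cyct the fifth, and Prss48, Sh2d4b and Vwa3a ranked 15, 488 and 47.

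The question of the second comparison was what the sequencer changes at these sites. The cell-type calls were alike: 45 of the 54 BGI peaks overlapped an Illumina member by at least 50% (83.3% of the BGI and 93.8% of the Illumina members), and 44 of these 45 had the same call. The exception was the farthest Slc2a3 start. Of the MEF peaks found on either platform, 20 lay in the neighbourhood, and 1 of them differed between BGI and Illumina, against 4.06% of all MEF peaks. With the library as a block, which the shared libraries allow, 5 of the 20 differed, against 29.2% of all. Of 53 mESC peaks 1 differed without the block, against 3.23% of all, and 4 with it, against 21.3%. The median log2 difference (BGI minus Illumina) of the members was 0.06 in MEFs and 0.03 in mESCs, beside 0.07 and 0.01 over all peaks.

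The peak that differed in both cell types was the Foxj2 start, which has a GC content of 74.8% in the MEF set. It was read lower on BGI, at 17.2, 17.9 and 20.2 CPM in MEFs against 26.0, 27.4 and 28.5 CPM on Illumina. In mESCs it had 11.3, 12.1 and 13.1 CPM on BGI and 16.9, 16.5 and 17.8 CPM on Illumina. The log2 difference was -0.59 ± 0.10 in MEFs (adjusted p = 0.0140) and -0.54 ± 0.11 in mESCs (adjusted p = 0.0193), and with the block adjusted p = 7.21e-11 and 1.16e-08. Without the block, leaving out MEF 1 or MEF 2 or any mESC library left no called member, and leaving out MEF 4 left 2. With the block the adjacent Foxj2 peak was also lower on BGI in both cell types, by -0.44 ± 0.09 in MEFs (adjusted p = 8.12e-05) and -0.28 ± 0.09 in mESCs (adjusted p = 0.00849). The others called with the block were the farthest Slc2a3 start, lower on BGI in MEFs, and the peaks at 32.7 and 97.2 kb in MEFs and 51.3 and 65.4 kb in mESCs, all higher on BGI. Across members the log2 difference fell as GC content rose, with Spearman's rho of -0.54 over 20 MEF peaks and -0.31 over 53 mESC peaks. These are correlations across peaks that share libraries, and peaks are not independent replicates.

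**Figure D4:**
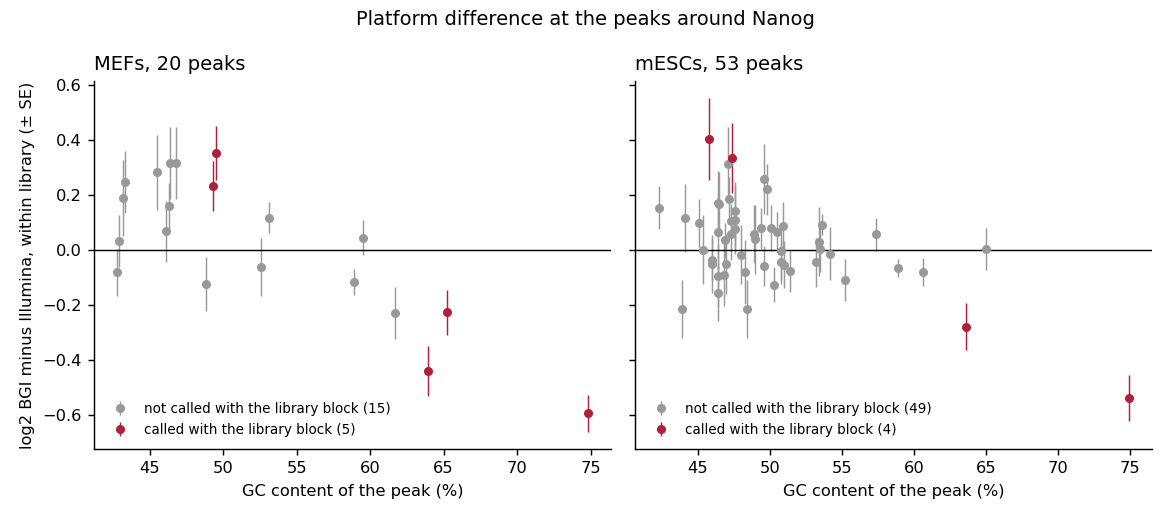
Log2 difference, BGI minus Illumina, within library with its standard error, against the GC content in percent of the 20 MEF peaks and 53 mESC peaks of the neighbourhood. Red marks the 5 and 4 peaks called with the library block. The Foxj2 start, at the right of both panels, has the lowest value in each.

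Whether the mESC to MEF difference itself depended on the sequencer was tested by the interaction of platform with cell type. Without the block no peak was called in the BGI set (0% of 91354) or in the Illumina set (0% of 87027) by edgeR, and DESeq2 called none either. At an unadjusted p under 0.05 there were 2386 and 2499 peaks, of which 1 and 2 were members. With the library block 353 peaks of the BGI set (0.386%) and 584 of the Illumina set (0.671%) were called, and 1 member was among them in each. It was the 103.6 kb peak, where the interaction (the mESC to MEF difference on BGI minus that on Illumina) was 0.20 in the BGI set (adjusted p = 0.0319) and 0.19 in the Illumina set (adjusted p = 0.0309). In these joint fits the median interaction over all peaks was not 0 but 0.11 and 0.12, while with DESeq2 it was -0.007 and -0.008. The platforms fitted separately gave cell-type differences of 0.15 and 0.08 at this peak. Whether the peak differed from that median was not tested.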

How the data were processed

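Accessibility was measured in 12 Omni-ATAC-seq samples: 6 libraries (3 MEF, 3 mESC, biological replicates per the study's methods), each on 2 platforms. The authors aligned reads to GRCm38, removed duplicates, mitochondrial reads and reads of low mapping quality, down-sampled reads (MEF samples to more than mESC samples), called peaks per sample with MACS2 and merged them into 4 peak sets. The deposited tables hold raw read counts per peak, not normalized. The deposited peak calls give a fold enrichment (a ratio over background) and a −log10 p-value for each summit, and the 4 deposited lists of reproducible peaks give positions only. The 4 further peak-set files were not used here, since the count tables hold the same kind of positions. Columns without a platform name were assigned to Illumina, which was checked: in all 6 libraries the ratio of the columns followed the ratio of the summit enrichments (Spearman's rho 0.754 to 0.793 across chromosome 6 peaks). No 2 samples held identical counts.

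CPM was computed from the reads in a peak set. Differences were tested with edgeR 4.0.16 (quasi-likelihood, two-sided, TMM, default low-count filter, R 4.3.3) on all peaks of a set, with DESeq2 1.42.0 as an alternative. The fitting functions were tested on simulated data. Platform and library are paired by design: after removal of group means, r between the 2 samples of a MEF library was 0.616 to 0.835, against -0.673 to 0.284 between libraries. For mESCs these were 0.517 to 0.728, against -0.513 to -0.109. mESC and MEF libraries are not paired. In the mESC against MEF fits, p-values measure the spread between these libraries. The platform and interaction fits without the block treat the 2 readings of a library as separate samples. With the block, their p-values measure the spread of the platform differences within libraries.

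The members, gene lists and motifs were chosen with earlier results of these data known. Peaks given in every sample were the promoter peak with the highest count of each coding gene, the 5 other peaks highest in mESCs, the 3 highest in MEFs, and up to 6 others that were not higher in mESCs, all by BGI values. Further peaks (the Gdf3 and common Slc2a3 starts, 8.4, 12.7, 36.0, 63.1, 120.8, 127.1, -5.4, -44.5 and -116.3 kb) were added after their values were seen. One gene of the stretch, with 1 BGI peak in it that was lower in mESCs, is not reported here. Promoter peaks lay within 1 kb of a GENCODE M21 start, and peak sets were matched at 50% overlap.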

Additional observations from a re-analysis of the deposited data

Results flagged for a closer look

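The 103.6 kb peak was singled out because the difference between cell types differed between the platforms when the library was kept as a block. The interaction was 0.20 on the log2 scale in the BGI peak set and 0.19 in the Illumina peak set. The median interaction over all peaks in the same fits was 0.11 and 0.12, and the separate fits gave differences between cell types of 0.15 on BGI and 0.08 on Illumina. Both values come from the same 12 samples and overlapping peaks. Groups of 3 samples were not tested for outlying samples.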

How the results depend on the processing

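The counts of members higher in mESCs stayed within 40 to 42 on BGI and 32 to 36 on Illumina over the scalings, low-count filters, left-out libraries and DESeq2, were 34 and 39 when each platform was counted on the other's peak set, and were 36 and 29 with a log2 fold change of at least 1. That limit left 2 members lower in mESCs on BGI and 3 on Illumina, and 0 of the 5 pluripotency promoters that were less open on either platform. Library sizes set to the down-sampled depths left 3 of these 5 on each platform and made 2 fibroblast promoters higher in mESCs on Illumina, and put the median over all peaks at 0.06 (BGI) and 0.09 (Illumina) in place of -0.08 and -0.03. Leaving out single libraries gave 3 to 5 less open pluripotency promoters on BGI, the lowest without mESC 5. Members differing between platforms numbered 0 to 2 in MEFs and 0 to 0 in mESCs when single libraries were left out, 2 in MEFs with DESeq2, and 5 in MEFs and 4 in mESCs with the replicate block. The interaction had 1 member in each set with the block. Of the single peaks, the log2 fold change changed sign with down-sampled depths at -37.9 kb on BGI (0.03497) and at 97.2 kb on Illumina (0.01573). It also did so on Illumina when single libraries were left out, which gave -0.03887 to 0.1262 at -37.9 kb (below 0 without MEF 2 or mESC 3), -0.02594 to 0.1457 at 113.0 kb (below 0 without MEF 1) and -0.002022 to 0.09321 at 119.0 kb (below 0 without MEF 2). None of these was called in either fit, and the cause was not tested. Members below 1 CPM in MEFs rest on few reads.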
